A study of Mus musculus with 2 samples.

Results

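Il1b-low mature neutrophils were 143 of the 1556 cell barcodes deposited for CD45+ cells of the mouse cochlea, and 143 of the 1285 barcodes that passed the quality and hashtag criteria. A barcode was counted among them when it had at least 200 detected genes, at most 10% mitochondrial UMIs and 1 hashtag with at least 10 UMIs and at least 80% of its hashtag UMIs. It also had to hold at least 300 UMIs of S100a8 and S100a9 together, fewer than 300 UMIs of Camp and Ngp together and fewer than 10 UMIs of Il1b per 10000 gene UMIs, and fewer than 5 UMIs of Mpo and Elane. The cells were thus chosen by these measured levels, so the levels of those genes are given below only as a description. The 143 cells were 30 from sham, 63 from day 3, 28 from day 7 and 22 from day 14.

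The study collected live CD45+ leukocytes from cochleae of untreated or sham-treated mice and of mice 3, 7 and 14 days after noise exposure. The labels use both words for the control, which is called sham here. Cochleae of 6 mice per condition were pooled, marked with 1 hashtag antibody per condition, sorted, and profiled with droplet single-cell RNA sequencing, in which each captured transcript is counted by its molecular identifier (UMI). The labels name no genotype, strain, sex, age, noise level or duration for any group, and no transgene or drug. The labels name kit version 2 in one field and version 3 in another, and the hashtag antibodies bind CD45 and MHC class I.

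Neutrophils form in the bone marrow in a fixed order. Dividing progenitors make the enzymes of the primary granules, later immature stages, of which the earliest still divide, make the proteins of the secondary granules such as lactoferrin and cathelicidin, and mature cells carry chemokine and growth factor receptors and circulate. S100a8 and S100a9 encode calprotectin, the most abundant cytosolic protein pair of these cells. Il1b encodes interleukin 1 beta, a cytokine whose transcription is switched on by inflammatory signals.

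The sequences below are the 250 bases before the start of transcription of genes that mark these cells, without S100a8, and of Il1b, the gene that separates them from the other mature neutrophils, from RefSeq on GRCm38.p6. They are shown because C/EBP factors drive many granulocyte genes. Each runs 5′ to 3′ on the strand of its gene, and capitals mark matches on either strand to TTNNGCAA, a short form of the C/EBP site.
S100a9: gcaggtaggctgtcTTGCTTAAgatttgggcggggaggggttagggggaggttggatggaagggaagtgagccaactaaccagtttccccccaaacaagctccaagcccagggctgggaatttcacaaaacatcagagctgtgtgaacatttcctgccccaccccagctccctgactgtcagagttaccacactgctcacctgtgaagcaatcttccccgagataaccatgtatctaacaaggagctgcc
Retnlg: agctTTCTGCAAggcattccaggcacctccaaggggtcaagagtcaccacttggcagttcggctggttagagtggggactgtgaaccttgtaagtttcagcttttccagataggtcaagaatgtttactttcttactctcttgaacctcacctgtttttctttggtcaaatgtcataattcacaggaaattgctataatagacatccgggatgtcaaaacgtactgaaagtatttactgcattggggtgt
Mmp8: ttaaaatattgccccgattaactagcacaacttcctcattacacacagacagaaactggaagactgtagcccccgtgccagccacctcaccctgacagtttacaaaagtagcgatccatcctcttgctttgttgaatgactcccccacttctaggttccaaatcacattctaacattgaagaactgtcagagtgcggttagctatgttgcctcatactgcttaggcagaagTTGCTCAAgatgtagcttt
Ly6g: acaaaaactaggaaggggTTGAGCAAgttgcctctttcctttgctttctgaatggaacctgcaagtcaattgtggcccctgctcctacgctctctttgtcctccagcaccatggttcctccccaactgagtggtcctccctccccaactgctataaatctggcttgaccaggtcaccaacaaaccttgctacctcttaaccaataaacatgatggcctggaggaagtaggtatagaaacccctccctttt
Il1b: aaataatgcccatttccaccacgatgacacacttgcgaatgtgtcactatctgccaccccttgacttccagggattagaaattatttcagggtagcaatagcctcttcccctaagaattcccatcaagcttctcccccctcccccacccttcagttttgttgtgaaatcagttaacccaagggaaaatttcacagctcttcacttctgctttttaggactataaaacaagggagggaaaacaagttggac
They lie at chr3:90695722-90695971 (minus strand), chr16:48872358-48872607 (plus), chr9:7558179-7558428 (plus), chr15:75155011-75155260 (plus) and chr2:129371140-129371389 (minus). The C/EBP letters begin at position -236 in S100a9, -246 in Retnlg, -19 in Mmp8 and -232 in Ly6g, counted from the start of transcription, and are in neither the S100a8 nor the Il1b window. The S100a8 window is a marker window that is not printed. Among 32851 mouse promoter windows of the same length, 3142 (9.56%) hold that motif. A match of letters is no measure of binding, and a window without one says nothing of the factor.

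Markers of mature neutrophils were present in the members of every pool. The resistin-like secreted protein gene Retnlg stood at 43969, 41510.2, 46475 and 52671 UMIs per 1000000 gene UMIs (CPM) in the summed members of sham, day 3, day 7 and day 14. Per cell it had a median of 451, 442, 461 and 533 UMIs per 10000 in the same order, and the single cells ran from 15.2 to 911. Retnlg was found in all 143 members and at 93.1 CPM in 379 B lineage barcodes, of which 35.4% held a UMI. The neutrophil collagenase gene Mmp8 stood at 3462, 2950.2, 3385 and 3362 CPM and Ly6g, which encodes the surface antigen used to sort mouse neutrophils, at 2233, 2290.1, 2257 and 2393 CPM. With every cell thinned to 2000 UMIs, 96.7% of members would be expected to hold an Mmp8 UMI and 87.0% a Ly6g UMI, against 1.37% and 2.53% of B lineage barcodes. Unthinned, the shares were 98.6% and 93.7% in members at a median of 9201 UMIs per cell, and 4.22% and 6.60% in B lineage barcodes at a median of 5642 UMIs.

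Receptor transcripts of mature neutrophils were also found in every pool. Csf3r, the receptor for granulocyte colony-stimulating factor, stood at 422, 355, 411 and 443 CPM and was found in 138 of 143 members. Cxcr2, the receptor that draws neutrophils towards CXC chemokines, stood at 859.9, 538, 702 and 706 CPM, lowest on day 3. S100a8 and S100a9, genes of the rule, together had similar medians of 3827, 3879, 3963 and 3894 UMIs per 10000 in the pools. Camp and Ngp, also of the rule, had medians of 72.6, 24.9, 37.4 and 14.5 per 10000, highest in sham and lowest on day 14. Il1b had 0 UMIs in 88 members, more than 0 and under 5 per 10000 in 38 and 5 to under 10 in 17. The members nearest the limit stood at 9.45, 9.44 and 9.32 Il1b UMIs per 10000, and the nearest excluded cells at 10.2, 10.4 and 10.6. Of 145 mature neutrophils above the limit, 23 lay between 10 and 20, and 122 at 20 or more. Camp and Ngp together reached 299 and 291 per 10000 in the members nearest that limit and 311 and 314 in the cells just outside.

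**Figure D1:**
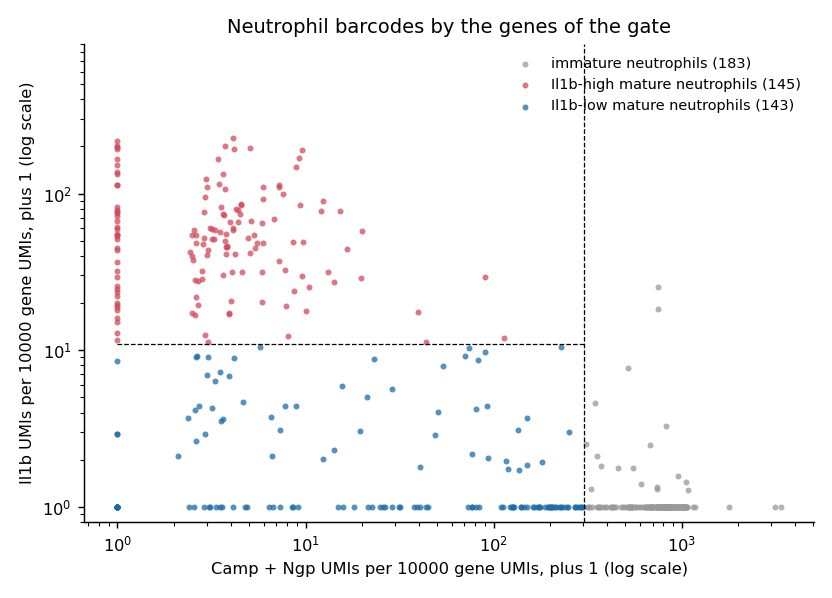
Each point is 1 neutrophil barcode, with Camp and Ngp UMIs per 10000 gene UMIs on the x axis and Il1b UMIs per 10000 on the y axis, both plus 1 on log scales. Dashed lines mark the limits of 300 and 10, and the 143 Il1b-low mature neutrophils fill the lower left, with 88 of them on the baseline of 0 Il1b UMIs.

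Markers of other cells were at or near 0 for some lineages and present for others. The 14 macrophage and monocyte markers summed to 829, 1458, 1021 and 1149 CPM in sham, day 3, day 7 and day 14, none was at 0, and 100 of 143 members held at least 5 of these UMIs. Ly6c2, a surface antigen gene, made up 1269 of the 1620 UMIs. The 14 T and NK cell markers summed to 472, 442, 482 and 342 CPM, with 6 at 0 and 61 members at 5 UMIs or more, and Cd3d made up 561 of the 591 UMIs. The part of these markers in the results was not tested. Of 9 eosinophil markers 8 were at 0 UMIs, as were 7 of 8 basophil and mast cell markers, 7 of the 11 measured erythroid and platelet markers and 14 of 16 markers of cochlear cells that are not leukocytes. The 10 dendritic cell markers summed to 506, 1364, 27.9 and 39.2 CPM in sham, day 3, day 7 and day 14, with 3 at 0, and the 12 B lineage markers to 194, 43.4, 15.9 and 22.4 CPM, with 1 at 0. Most of the dendritic and B lineage UMIs sat in 4 barcodes. In day 3, 3 barcodes with 25066, 25898 and 36854 UMIs held 242, 611 and 27 UMIs of B lineage and dendritic markers, and in sham 1 barcode of 18122 UMIs held 166, with 88.8% of its hashtag UMIs on the leading hashtag.

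A second set of barcodes stood at the low edge of the S100 limit. The 5 lowest members held 318, 377, 397, 1280 and 1489 UMIs of S100a8 and S100a9 per 10000. In all, 8 barcodes had either under 1500 such UMIs per 10000 or at least 5 UMIs of B lineage and dendritic markers. They were 3 in sham, 4 in day 3, 0 in day 7 and 1 in day 14, and carried 7.93%, 13.8%, 0% and 0.282% of the members' UMIs. The counts over all genes of each day are therefore also given over the other 135 cells (27, 59, 28 and 21). All 20 genes named by rank for day 7 and all 20 for day 14 kept their side of the 1.5-fold limit over those cells, and their ratios shifted by at most 1.34-fold (Rilpl2) and 1.47-fold (Tmsb10). For day 3, 15 of 20 kept their side, and 10 shifted by less than 1.5-fold.

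**Figure D2:**
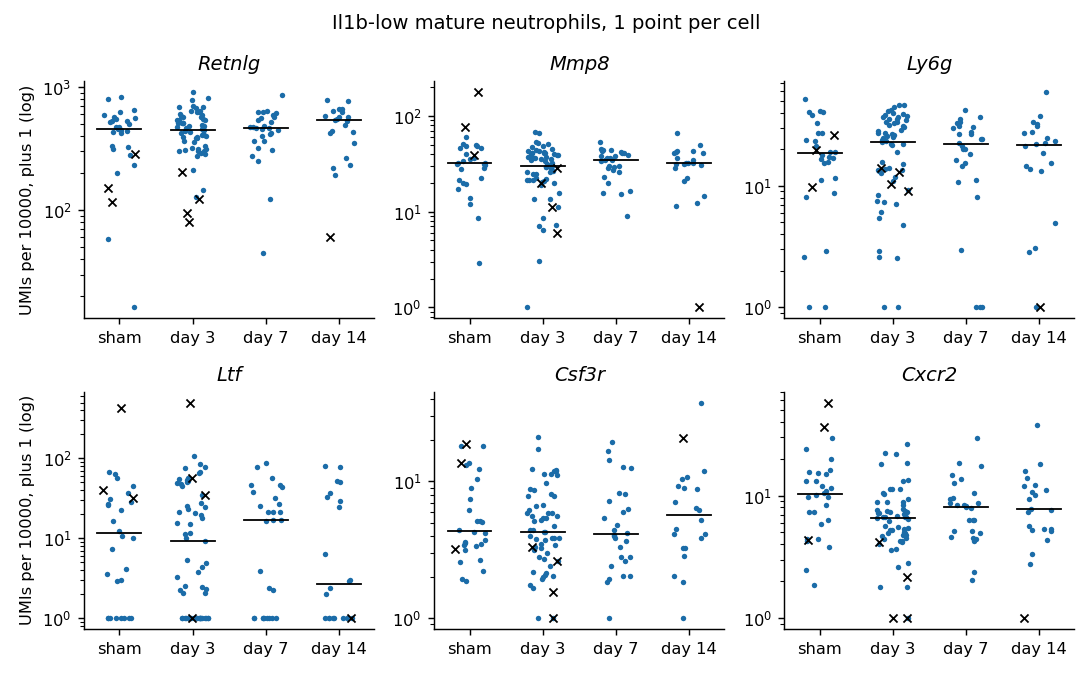
Each point is 1 Il1b-low mature neutrophil, with UMIs per 10000 gene UMIs plus 1 on a log y axis and the pool on the x axis. Bars are medians and crosses are the 8 barcodes described above. Retnlg medians lie between 442 and 533 in all pools, while Ltf and Ly6g spread from 0 upwards.

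The Il1b-low mature neutrophils made up 8.80% of sham cells (exact 95% interval 6.01 to 12.3), 11.4% of day 3 cells (8.90 to 14.4), 12.96% of day 7 cells (8.79 to 18.2) and 12.4% of day 14 cells (7.96 to 18.2). The ratio to sham was 1.30 (0.829 to 2.08) on day 3, 1.47 (0.848 to 2.55) on day 7 and 1.41 (0.777 to 2.53) on day 14, so that all 3 intervals include 1. Among mature neutrophils they were 61.2% of 49 in sham, 47.0% of 134 on day 3, 48.3% of 58 on day 7 and 46.8% of 47 on day 14. The exact intervals of these 4 shares overlapped (46.2 to 74.8 in sham and 38.3 to 55.8 on day 3). Shares depend on the sort, on the gate and on cell recovery, and a pool of 6 mice gives no spread between animals. All intervals cover counting error only, and every comparison with sham uses the same pool.

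Members lay between the other 2 neutrophil classes in RNA content. Their median was 9268, 9201, 9082.5 and 9066.5 UMIs per cell in sham, day 3, day 7 and day 14, against 4285, 4726, 4125 and 5223 in Il1b-high mature neutrophils and 17272, 16316, 15771 and 18322 in immature neutrophils, which hold at least 300 UMIs of Camp and Ngp per 10000. The order was the same in all 4 pools. The median number of detected genes in members was 1643.5, 1692, 1637 and 1580.5, and the median mitochondrial share 0.776%, 0.733%, 0.567% and 0.665%.

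**Figure D3:**
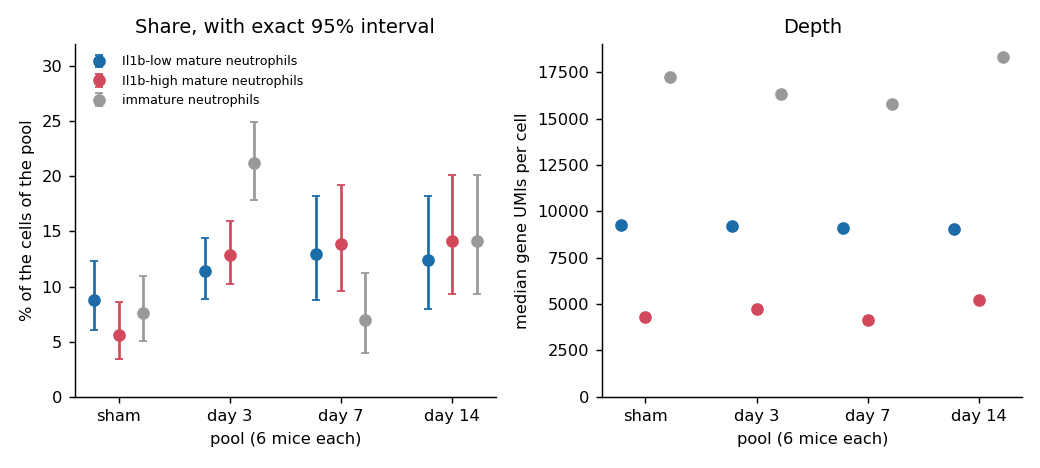
Left, the share of each neutrophil class in the cells of each pool with exact 95% intervals. Right, the median gene UMIs per cell. The Il1b-low share runs from 8.80% to 12.96% with overlapping intervals, and the Il1b-low depth lies between the other 2 classes in every pool.

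Members differed among themselves in secondary granule transcripts. Camp and Ngp, which belong to the rule, spread from 0 to 299 UMIs per 10000, with 54 members under 10, 40 from 10 to under 100 and 49 at 100 or more. Ltf, the lactoferrin gene, which the rule did not use, stood at 125 CPM in the first range, 1142 in the second and 5028 in the third. Lcn2, encoding the siderophore-binding lipocalin, followed with 2311, 6968 and 10672 CPM, and Ly6g with 1234, 2378 and 2868 CPM. Across the 143 members, Spearman's rho with Camp and Ngp was 0.89 for Ltf, 0.78 for Lcn2 and 0.64 for Ly6g.

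The transcripts of Csf3r, Ccl6, Dusp1 and Fth1 ran the other way along the same range. Csf3r stood at 724, 331 and 223 CPM from the lowest to the highest range (rho -0.65), and the chemokine gene Ccl6 at 2609.9, 933 and 297 CPM (rho -0.74). The immediate early gene Dusp1, a phosphatase that shuts off MAP kinases, stood at 1012, 262 and 161 CPM, and Fth1, the ferritin heavy chain, at 7648, 5364 and 3581 CPM. Retnlg had no such order, with 44840.1, 52659 and 39300.9 CPM. The cells of a range share a library and differ in depth, with medians of 6383.5, 9360 and 11802 UMIs per cell, and rho with total UMIs was 0.71 for Ltf and -0.70 for Csf3r. The part of depth in these relations was not tested. The lowest range held 20% of sham members, 42.9% of day 3, 35.7% of day 7 and 50% of day 14 members.

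Secondary granule genes made up more of the UMIs of Il1b-low cells than of Il1b-high mature neutrophils, and inflammatory and receptor genes less. These are shares of UMIs, not amounts per cell, and the median UMIs per cell were 9201 in Il1b-low and 4585 in Il1b-high cells. The 2 classes were split on Il1b, so these are descriptions without a test. Of 4917 genes with at least 20 UMIs, 615 (12.5%) were at least 1.5-fold higher and 1478 (30.1%) at least 1.5-fold lower in the Il1b-low cells, with a median log2 ratio of -0.27 over all genes. S100a8 and S100a9 together take up more of the Il1b-low total. With scaling to the median ratio of the measured genes the split was 962 higher and 890 lower, so a ratio is best read against that shift. Ltf stood at 2462, 2774, 2603 and 2421 CPM in Il1b-low cells of the 4 pools and at 718, 20.2, 200.2 and 24.4 CPM in Il1b-high cells, a ratio of 17.1 (14.2 to 20.9) over all pools. The lowest Il1b-low pool stood above the highest Il1b-high pool. Lcn2 was 6.04-fold higher (5.63 to 6.48), Ly6g 3.71-fold (3.36 to 4.11), Cd177, a neutrophil surface glycoprotein gene, 3.18-fold (2.66 to 3.84) and Anxa1, the gene of the glucocorticoid-regulated protein annexin A1, 2.92-fold (2.66 to 3.21). Of the 15 secondary granule genes, all measured, 12 were at least 1.5-fold higher and 0 lower, with a median log2 ratio of 1.55. Camp and Ngp are among these 15 and are bounded by the rule from above in both classes.

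Other genes at the top of the ranking were Acvrl1, a receptor of the TGF-beta family (21.0-fold, 7.03 to 103, from 119 against 3 UMIs), Chil3, a chitinase-like secreted protein (10.9-fold), Plac8 (9.96-fold), the integrin gene Itgb2l (6.47-fold), the protease inhibitor gene Serpinb1a (5.40-fold), the interferon-induced membrane protein gene Ifitm6 (4.83-fold) and Anxa3 (4.53-fold). Each was higher in all 4 pools. In Plac8, 28.9% of the Il1b-low UMIs sat in 1 cell. These ratios include the 4 barcodes with at least 5 UMIs of dendritic or B lineage markers. All 5 measured dendritic markers were higher (median log2 ratio 4.13), as were 4 of 6 macrophage and monocyte markers, with 1 lower (1.25). Of 5 B lineage markers 4 were lower and 0 higher (-2.50). Across the processing alternatives the ratio ran from 2.53 to 12.04 for Plac8, 3.12 to 29.2 for Acvrl1 and 4.89 to 35.5 for Ltf. Mmp8 was 1.89-fold higher (1.78 to 2.02) and Retnlg 1.60-fold (1.57 to 1.62), whereas the gelatinase gene Mmp9 was 1.10-fold (1.02 to 1.18) and G0s2 1.07-fold (0.999 to 1.15). Among 12 measured tertiary granule and secretory vesicle genes 1 was higher and 0 lower (median log2 ratio 0.17), and among 8 NADPH oxidase genes, which make the oxidative burst, 2 were higher and 0 lower (0.22). The shares of all genes were 12.5% higher and 30.1% lower.

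The lower genes included most of the immediate early list, genes that cells switch on within minutes of a stimulus. Of 21 measured immediate early genes 20 were at least 1.5-fold lower and 0 higher, with a median log2 ratio of -1.49 beside the -0.27 of all genes. Of all genes 30.1% were lower and 12.5% higher. Junb, an AP-1 subunit, stood at 2104, 1430.2, 749.5 and 1188 CPM in Il1b-low cells and at 4318, 5344, 2152 and 3755 CPM in Il1b-high cells (ratio 0.326, 0.308 to 0.346). In each pool the Il1b-low level was below the Il1b-high level, although Il1b-low sham came close to Il1b-high day 7. Dusp1 had a ratio of 0.191 (0.173 to 0.210), Atf3 0.137 and Egr1 0.266. Of 23 measured NF-kB feedback and inflammatory genes 18 were lower and 0 higher (median log2 ratio -0.92), among them Nfkbia, the inhibitor that NF-kB induces (0.214), the chemerin-binding receptor gene Ccrl2 (0.082), the prostaglandin synthase gene Ptgs2 (0.111) and the inflammasome sensor gene Nlrp3 (0.244). Ptgs2 was the exception by pool, with a ratio of 1.28 in sham. Ccl3, a chemokine gene, had a ratio of 0.091, and Cxcl2, which recruits neutrophils through Cxcr2, 0.278.

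Receptor genes were also lower in the Il1b-low cells. Of 25 measured chemoattractant and cytokine receptor genes 18 were lower and 2 higher (median log2 ratio -0.87), and of 21 late maturation genes 15 were lower and 3 higher (-1.13). Beside these stand 30.1% lower and 12.5% higher over all genes. Csf3r had a ratio of 0.266 (0.239 to 0.296), Cxcr2 0.448 (0.409 to 0.491) and the interleukin 1 decoy receptor gene Il1r2 0.445, each below 1 in all 4 pools. Ltb4r1, the leukotriene B4 receptor gene, ran the other way at 2.97 (2.22 to 4.03). Among transcription factors, Cebpe, which directs secondary granule formation, was 3.27-fold higher (2.0004 to 5.62), and Cebpb, linked to emergency granulopoiesis and inflammatory genes, had a ratio of 0.348 (0.328 to 0.369). Of the 18 measured genes on the granulopoiesis transcription factor list, 3 were higher and 3 lower. Their median log2 ratio was -0.19, beside -0.27 over all genes.

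**Figure D4:**
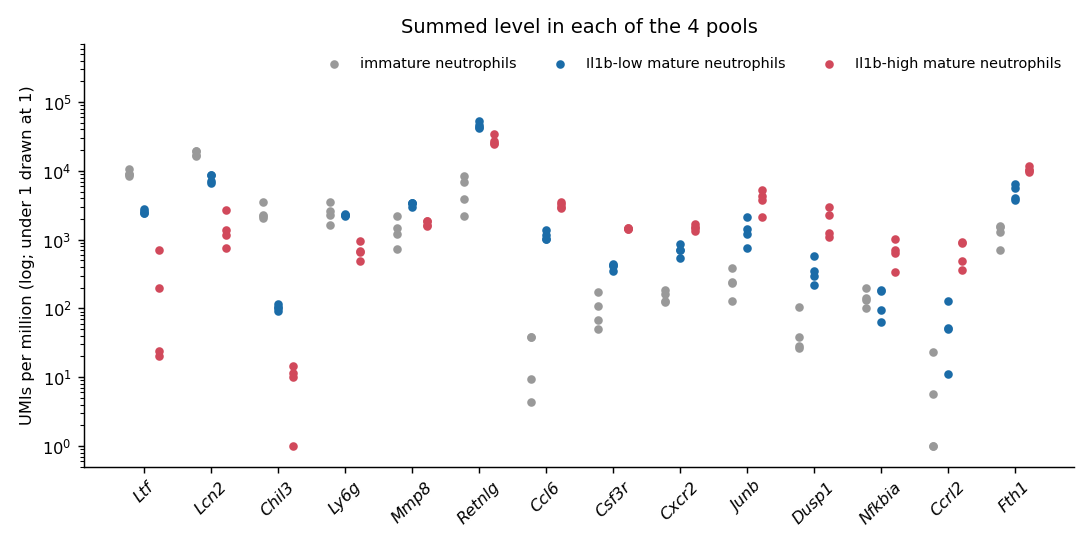
Points are the summed levels in the 4 pools, in CPM on a log axis (under 1 drawn at 1), for immature, Il1b-low mature and Il1b-high mature neutrophils. Ltf and Lcn2 step down from left to right within each gene, Csf3r, Cxcr2 and Junb step up, and for these genes the Il1b-low points lie in between. Retnlg, summed over the pools, is highest in Il1b-low cells.

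Next to immature neutrophils the Il1b-low cells held little cell cycle RNA and more receptor RNA as a share of their UMIs. The 2 classes were split on Camp and Ngp, so these too are descriptions. Of 7145 genes, 1509 (21.1%) were at least 1.5-fold higher and 2566 (35.9%) lower, with a median log2 ratio of -0.19. All 25 listed cell cycle genes were lower (median -4.24), and the topoisomerase gene Top2a had 6 UMIs in members against 668 in immature cells. Fcnb, a ficolin gene of immature granulocytes, had 0 UMIs against 970, Chil3 stood at 108 against 2396 CPM, and Cebpe at 87.5 against 455 CPM. Higher were Ccl6 (38.2-fold, 31.1 to 47.5), the adhesion molecule gene Jaml (18.4-fold), the C-type lectin gene Clec4d (14.9-fold), Retnlg (7.56-fold), Cxcr2 (4.32-fold) and Csf3r (3.99-fold). Of 25 measured receptor genes 18 were higher and 1 lower, and of 22 immediate early genes 18 were higher and 1 lower (median log2 ratio 1.32). Ly6g differed little, at 2286 against 2449 CPM (ratio 0.934, 0.895 to 0.974).

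On day 3 after noise, the higher genes in the full set of members depended on a few barcodes. Of 3225 genes with at least 20 UMIs, 738 (22.9%) were at least 1.5-fold higher than in sham and 296 (9.18%) at least 1.5-fold lower. With only the 3 day 3 barcodes of dendritic or B lineage marker RNA left out and sham kept whole, 365 of 2853 genes (12.8%) were higher and 323 (11.3%) lower. Of the 738 higher genes, 530 still had 20 UMIs, and 329 of those were still higher. Over the 135 cells without the 8 barcodes, 416 of 2780 genes (15%) were higher and 275 (9.89%) lower. The genes ranked highest over all 143 cells, among them Bst2, Lgals1, Jun, Irf7, Npc2, Plac8 and Ppia, had 28.8% (Ctsb) to 48.5% (S100a10) of their day 3 UMIs in 1 cell. Bst2, an antiviral tether that is also a plasmacytoid dendritic cell marker, had 128 day 3 UMIs in 5 cells, and 2 UMIs over the 59 day 3 cells that were kept.

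Interferon response genes showed the same dependence. Of 14 measured, 12 were at least 1.5-fold higher and 0 lower on day 3 over all members (median log2 ratio 1.95, beside 0.10 over all genes), and 3 of 6 over the 135 cells (0.44, beside 0.05). Ifi27l2a had a ratio of 18.9 (11.2 to 34.7) with 62.9% of its day 3 UMIs in 1 cell, and 1.89 (1.05 to 3.67) over the 135 cells. Isg15, a ubiquitin-like interferon product, went from 4.73 to 1.06 (0.416 to 3.01), while the interferon regulatory factor gene Irf7 kept a ratio of 3.80 (1.36 to 14.7) from 35 against 4 UMIs. MHC class I genes had 7 of 11 higher (median 0.73) and 2 of 9 (0.02) over the 135 cells. The shares of all genes that were higher were 22.9% over all members and 15% over the 135 cells.

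Over the 135 cells, Cxcl2 was among the genes higher on day 3. It stood at 1013 CPM against 475 in sham, a ratio of 2.13 (1.74 to 2.63), and over all members at 875 against 449 CPM. It was found in 71.4% of day 3 and 66.7% of sham members, with per cell medians of 2.17 and 1.87 UMIs per 10000 and highest cells at 129 and 36.2. The cells of both pools thus overlapped, with close medians, and differed in their highest cells, among 63 day 3 and 30 sham members. Thbs1, the gene of the matrix protein thrombospondin 1, had a ratio of 2.15 (1.76 to 2.64), the transcriptional inhibitor gene Id2 2.79 (1.85 to 4.35), the RNA-decay factor gene Zfp36l2 2.72 (1.67 to 4.68), Nfkbia 2.32 (1.39 to 4.08), Dusp1 1.81 (1.43 to 2.31) and the lymphoid and myeloid sphingosine phosphate receptor gene S1pr4 3.70 (1.59 to 10.5). The lowest Camp and Ngp range, where Dusp1 stood highest, held 42.9% of day 3 members and 20% of sham members. The part of that difference in the Dusp1 ratio was not tested. In Il1b-high cells of the same pools the day 3 ratio was 0.958 (0.833 to 1.11) for Cxcl2, 0.945 (0.768 to 1.17) for Thbs1 and 0.472 (0.320 to 0.703) for Id2, and the difference between the classes was not tested. Of 4 measured chemokine genes 1 was higher, of 17 NF-kB genes 3 were higher and 1 lower, and of 20 immediate early genes 4 were higher and 4 lower, beside 15% higher and 9.89% lower over all genes.

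Lower on day 3, with and without the 8 barcodes, were Rgs2 and Cebpe. Rgs2, a brake on G protein signalling, stood at 772, 394, 662 and 673 CPM in sham, day 3, day 7 and day 14, with per cell medians of 6.72, 3.03, 5.42 and 8.26 UMIs per 10000. Its day 3 ratio was 0.510 (0.422 to 0.616), and that of day 3 Il1b-high cells 0.951 (0.761 to 1.20). Cebpe stood at 148, 60.4, 112 and 61.6 CPM from 39, 39, 28 and 11 UMIs, with a day 3 ratio of 0.407 (0.254 to 0.652). Across the processing alternatives the day 3 ratio of Rgs2 ran from 0.427 to 0.615. That of Cebpe ran from 0.104 to 0.747, so it did not pass the 1.5-fold limit in every one. Also lower were Gpbp1l1 (0.378), the methionine metabolism gene Mat2b (0.354), the ubiquitin-conjugating enzyme gene Ube2a (0.392) and Cks2 (0.445), each with 47 or fewer UMIs on day 3. The S100 family gene S100a6 stood at 8322 CPM against 5742, a ratio of 1.45 (1.37 to 1.54) that stayed under the 1.5-fold limit, and at 7455 and 7033 CPM on days 7 and 14, so that sham was the lowest pool.

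On day 7 after noise, the immediate early genes were lower than in sham. Of 2112 genes 257 (12.2%) were at least 1.5-fold higher and 301 (14.3%) lower, and over the 135 cells 264 (13.1%) and 248 (12.3%) of 2021. Of 16 measured immediate early genes 8 were lower and 0 higher, with a median log2 ratio of -0.60 beside -0.02 over all genes, and the same 8 to 0 count with a median of -0.61 was found over the 135 cells. Junb stood at 749.5 CPM against 2104 in sham, a ratio of 0.356 (0.300 to 0.421). Its per cell medians were 13.5 UMIs per 10000 in sham, 8.83 on day 3, 5.00 on day 7 and 13.3 on day 14, and the highest cells stood at 89.0, 127, 53.2 and 35.3. The cells of all pools overlapped, with the day 7 median the lowest. Egr1, a zinc finger factor induced by growth and stress signals, had 15 day 7 UMIs in 5 cells against 59 sham UMIs in 16 cells (0.266, 0.140 to 0.476). Fos (0.586, 0.470 to 0.727), Dusp1 (0.622, 0.436 to 0.880) and the RNA-decay factor gene Zfp36 (0.476, 0.284 to 0.777) were lower too.

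Of 4 measured chemokine genes 2 were lower and 1 higher on day 7, and of 18 chemoattractant and cytokine receptor genes 2 were lower and 2 higher, with a median log2 ratio of -0.02. Cxcl2 stood at 151.5 CPM (0.337, 0.228 to 0.490) and was found in 39.3% of day 7 members against 66.7% of sham members, at close median depths. Ccl4, another chemokine gene, had 9 day 7 UMIs against 36, of which 88.9% of the sham UMIs sat in 1 cell. Clec4d had a ratio of 0.434 (0.318 to 0.586), the nuclear lamina gene Lmnb1 0.429 (0.313 to 0.582), the adaptor gene Stap1 0.377 and the MHC class I gene H2-K1 0.299. Fth1 stood at 3760 CPM against 6404 (0.587, 0.542 to 0.636), while Ftl1, the light chain of the same ferritin shell, was at 4035 against 3793 CPM (1.06, 0.974 to 1.16). Per cell medians of Fth1 were 55.0, 46.4, 36.0 and 39.0 UMIs per 10000 in sham, day 3, day 7 and day 14. Of 20 late maturation genes 4 were lower and 0 higher (median log2 ratio -0.28), of 15 NF-kB genes 4 lower and 0 higher (-0.36), and of 20 pattern recognition and Fc receptor genes 6 lower and 0 higher (-0.11). Over all 2112 genes 14.3% were lower and 12.2% higher (-0.02), so the late maturation count lies near that share.

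Il1b-high cells of day 7 ran alongside in part. Of 17 measured immediate early genes 10 were lower and 0 higher there (median log2 ratio -0.75), beside 15.9% lower and 13.2% higher of 1394 genes with a median of -0.02. Junb stood at 0.498 (0.429 to 0.579) and Cxcl2 at 0.215 (0.165 to 0.279). Fth1 stood at 0.913 (0.841 to 0.992), Clec4d at 0.838 (0.629 to 1.12) and Lmnb1 at 0.854 (0.618 to 1.18) in Il1b-high cells. The difference between the classes was not tested.

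Few genes were higher on day 7 with many UMIs. Sgk1, a serum- and glucocorticoid-induced kinase gene, had 30 UMIs in 16 cells against 7 in 6 cells (4.49, 1.93 to 12.1). Of 8 measured glucocorticoid response genes, though, 1 was higher and 4 were lower (median log2 ratio -0.29), beside 12.2% higher and 14.3% lower over all genes. Tsc22d3, a glucocorticoid-induced leucine zipper gene, stood at 1.05 (0.670 to 1.64). The chitinase-like gene Chil1 had a ratio of 1.81 (1.32 to 2.49), the dynein adaptor gene Rilpl2 2.42 (1.32 to 4.67), the complex I subunit gene Ndufv3 2.83 (1.33 to 6.55) and the histone variant gene H2afy 2.62 (1.30 to 5.62). Olfm4, a secondary granule gene present in only a subset of neutrophils, had a ratio of 1.67 (1.402 to 1.98), with 27.2% of its day 7 UMIs in 1 cell, and 0.473 when the Camp and Ngp limit was 100.

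On day 14 after noise, the lipid droplet gene Plin2 headed the higher genes. Of 1876 genes 176 (9.38%) were at least 1.5-fold higher than in sham and 304 (16.2%) lower, and over the 135 cells 194 (11.1%) and 242 (13.8%) of 1755. Plin2, which encodes the coat protein perilipin 2, stood at 64.7, 118, 116 and 235 CPM in sham, day 3, day 7 and day 14, and was found in 43.3%, 54.0%, 46.4% and 81.8% of members. Thinned to 2000 UMIs the shares were 11.2%, 20.9%, 16.9% and 40.8%, against 18.5% unthinned and 5.04% thinned in B lineage barcodes. The day 14 ratio was 3.64 (2.03 to 6.82), from 42 against 17 UMIs, and no cell held more than 11.9% of the day 14 UMIs. In Il1b-high cells it was 1.91 (0.798 to 5.04). Dck, a nucleoside kinase gene, had 28 UMIs in 14 of 22 cells against 13 UMIs in 10 of 30 (3.17, 1.59 to 6.67), Gnas, a G protein subunit gene, 1.83 (1.24 to 2.71), Chil1 1.65 (1.17 to 2.35) and the gasdermin gene Gsdme 2.08 (1.16 to 3.76).

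Lower on day 14 were again Egr1, Junb and Fth1. Egr1 had 8 UMIs in 2 cells against 59 in 16 (0.200, 0.082 to 0.420), Junb stood at 1188 CPM (0.565, 0.480 to 0.663), and Fth1 at 4001 CPM (0.625, 0.572 to 0.682). The Junb medians per cell of 13.3 and 13.5 UMIs per 10000 were close, while the highest cells stood at 35.3 and 89.0. In Il1b-high cells the day 14 ratios were 0.891 (0.557 to 1.43) for Egr1, 0.870 (0.761 to 0.994) for Junb and 0.971 (0.894 to 1.06) for Fth1. Of 16 immediate early genes 4 were lower and 1 higher (median log2 ratio -0.23). Over all genes 16.2% were lower and 9.38% higher, with a median of -0.05. Jaml (0.437, 0.281 to 0.663), Stap1 (0.322, 0.167 to 0.581), the lectin receptor gene Clec4e (0.552, 0.392 to 0.767) and Lmnb1 (0.494, 0.351 to 0.685) were lower too, and with every cell weighted alike Lmnb1 stood at 1.13. Across the processing alternatives Clec4e ran from 0.346 to 0.92, Jaml from 0.291 to 0.49 and Stap1 from 0.236 to 0.403. Cxcl2, lower on day 7, stood at 426 against 449 CPM (0.949, 0.701 to 1.28).

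**Figure D5:**
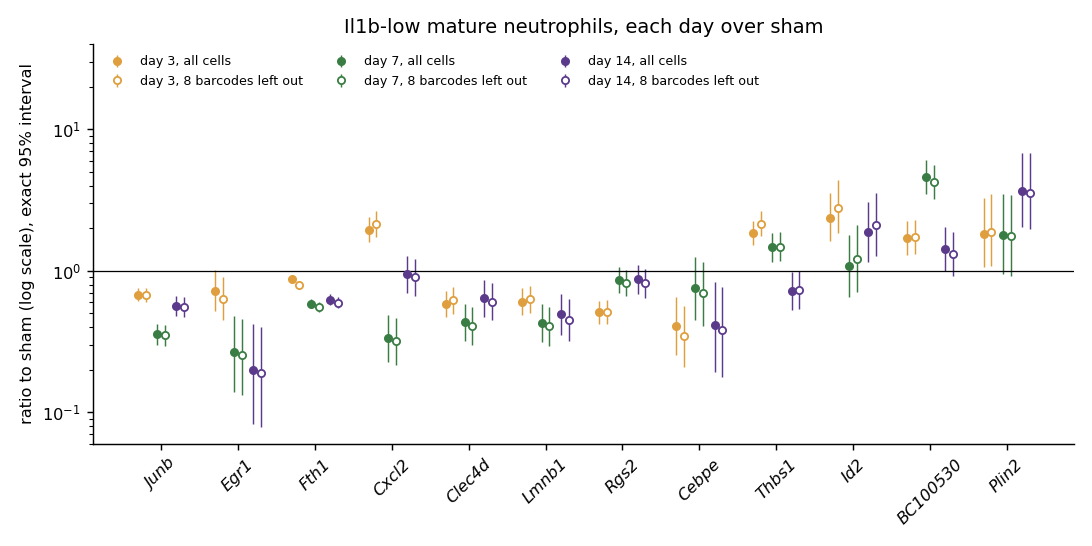
Ratios of each day to sham for 12 named genes on a log axis, with exact 95% counting intervals. Filled points use all 143 cells and open points the 135 cells without the 8 barcodes. Junb, Egr1 and Fth1 lie below 1 on days 7 and 14, Plin2 reaches 3.64 on day 14, and Rgs2 is lowest on day 3.

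In the summed counts, few granule, oxidase and adhesion genes passed the 1.5-fold limit between the pools. Over all measured genes, 22.9%, 12.2% and 9.38% were at least 1.5-fold higher on days 3, 7 and 14, and 9.18%, 14.3% and 16.2% lower. Of 15 secondary granule genes 0, 1 and 0 were at least 1.5-fold higher on days 3, 7 and 14 and 0 were lower, with median log2 ratios of 0.07, 0.07 and 0.03. Over the 135 cells 1 was lower on day 14. Per cell, the Camp and Ngp medians of 72.6 in sham and 14.5 on day 14 and the 20% and 50% of members in the lowest Camp and Ngp range differed more than these sums. Ltf had ratios of 1.13 (1.03 to 1.23), 1.06 (0.947 to 1.18) and 0.983 (0.869 to 1.11), and Cybb, the catalytic subunit of the NADPH oxidase, 1.09, 1.34 and 1.07. None of the 7 measured NADPH oxidase genes passed the 1.5-fold limit on any day. Of 20 to 22 measured adhesion and migration genes 2 were higher on day 3, 0 differed on day 7 and 1 was lower on day 14, with the integrin genes Itgb2 (0.964, 1.16 and 1.10) and Itgam (1.04, 1.31 and 0.833) inside the limit. In Il1b-high cells the secondary granule list had 8, 5 and 7 of 14 genes lower and 0 higher on the 3 days, with median log2 ratios of -0.78, -0.44 and -0.57. Over all genes of those cells 14.9%, 15.9% and 16.7% were lower, with medians of 0.03, -0.02 and -0.06. The difference between the classes was not tested.

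Genes of the stefin A cluster, inhibitors of cysteine proteases on chromosome 16, varied between the pools and between cells. BC100530 (36359382 to 36367748 on chromosome 16 of GRCm38, GENCODE vM21) stood at 255, 432, 1168 and 364 CPM in sham, day 3, day 7 and day 14, with a day 7 ratio of 4.58 (3.50 to 6.07). It was found in 7 of 30, 17 of 63, 11 of 28 and 4 of 22 members, so most cells had none. Gm5483 stood highest in sham, at 1518, 421.5, 682 and 599.6 CPM, and Stfa2l1 at 498, 166, 39.9 and 202 CPM. Stfa2 had 0 UMIs in sham and 72, 23 and 8 on days 3, 7 and 14, of which 84.7% to 87.5% sat in 1 cell per pool. These genes are near copies of each other and reads can be split between them, so the values of single members are uncertain. In Il1b-high cells BC100530 had ratios of 1.06 (0.634 to 1.87), 2.53 (1.504 to 4.46) and 5.75 (3.55 to 9.85).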

How the data were processed

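Leukocytes from 4 pools of 6 mice were measured in 1 droplet library with 4 hashtags. The authors deposited whole-number UMI counts per gene and barcode, made with Cell Ranger 3.1.0 per the file headers with mm10 as the build per the submitters' processing notes. The cell calling step was not given in the sources used here. The files held 1556 barcodes, 31053 genes and 15753747 gene UMIs, and the RNA and hashtag files held the same barcodes and gene counts. Gated barcodes had a median of 7389 gene UMIs.

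Counts were summed per class and pool and scaled to counts per 1000000 (CPM). With 1 pool per condition there is no replicate and no test: ratios of CPM carry exact conditional Poisson 95% intervals and shares exact Clopper-Pearson intervals. A gene was counted as higher or lower at a ratio of 1.5 among genes whose UMIs in the compared sums came to 20 or more. A side at 0 was set to 3 UMIs, which gives a bound. Detection was also computed after thinning cells to 2000 UMIs, leaving out shallower cells.

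Genes named for a day were the 10 highest and 10 lowest by the interval bound nearest 1, with at least 30 UMIs, a ratio of at least 1.5 and no cell holding 50% or more of the higher pool's UMIs. For Il1b-low against Il1b-high cells 12 on each side were taken that moved the same way in every pool, and up to 4 per list. Mitochondrial, ribosomal protein, antigen receptor, predicted-model, Xist, Y-linked and rule genes were left out of the ranking. The members, lists and classes were chosen with earlier results of these data known. Genes named outside the rule, such as S100a6 and Cd3d, were chosen after their values were seen.

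No doublet caller was run, and doublets were treated only through the 80% hashtag limit. Coordinates came from GENCODE vM21 (30934 of 31053 gene IDs matched) and promoters from RefSeq on GRCm38.p6. Gene counting was tested on simulated independent Poisson counts with known ratios. That setting holds no clumping of UMIs in single cells, so it does not test the width of the intervals in these data. Alternatives changed the gate, the scaling, the UMI minimum and single cells. Software was Python 3.11.15 with numpy 2.4.6, scipy 1.17.1, pandas 2.3.3 and matplotlib 3.10.9.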

Additional observations from a re-analysis of the deposited data

How the results depend on the processing

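No paired analysis was possible because each condition is 1 pool, and no replicate could be left out. Of the members' shares of all cells, that of sham was 4.99%, of day 3 6.72% and of day 7 7.87% when members were limited to cells with 0 Il1b UMIs, and 7.44% on day 3 and 7.87% on day 7 with a Camp and Ngp limit of 100. Day 3 genes counted as higher (738 as reported) were 1750 at a minimum of 5 UMIs, 256 at 50, 382 with the Camp and Ngp limit of 100, 410 without barcodes holding at least 5 B lineage or dendritic UMIs, 429 with an S100 limit of 1500, 416 with both, and 365 without the 3 such day 3 barcodes alone. Day 3 lower genes (296) were 887 and 92 at minimums of 5 and 50, 483 with cells weighted alike, 188 without each gene's top cell and 470 with the 3 Camp and Ngp ranges weighted alike. Day 7 higher genes (257) were 1096 and 42 at those minimums and 168 with 0 Il1b UMIs, and lower genes (301) were 998 and 97. Day 14 higher genes (176) were 744 and 33, 279 with cells weighted alike and 111 without the top cell, and lower genes (304) were 1014 and 77, and 199 with the Camp and Ngp limit of 100. Genes higher in Il1b-low than Il1b-high cells (615) were 962 with median-ratio scaling, and lower genes (1478) were 890, and 971 with S100a8 and S100a9 left out of the totals. Direction turned for the stefin median on day 3 (0.68 at an Il1b limit of 5, -0.84 as reported), the MHC class I median on day 3 (-0.0306 without B lineage or dendritic barcodes, -0.135 without those of day 3 alone and -0.0930 with the S100 limit of 1500, 0.73 as reported) and the dendritic marker median on day 3 (-0.73 and -0.90 at Il1b limits of 5 and 0, -0.60 with the S100 limit, 1.56 as reported). It turned for Olfm4 on day 7 (0.473 with the Camp and Ngp limit of 100, 1.67 as reported) and Lmnb1 on day 14 (1.13 with cells weighted alike, 0.494 as reported). Of the values of single genes under all alternatives 1434 stayed within the counting interval of the reported ratio and 134 left it on the same side of 1. Of the list medians 1303 moved by less than a 1.5-fold step and 37 by more without being counted as turned. A list median was counted as turned only where it was reported at a 1.5-fold step or more from 0. Smaller medians crossed 0 as well. On day 7 examples are the stefin median (-0.52 as reported, -2.11 to 1.81 across alternatives) and the apoptosis and survival median (-0.23, -0.37 to 0.54). The day 7 interferon response median (-0.26, -0.36 to 0.39) is another. The alternatives on B lineage and dendritic UMIs (in all pools or day 3 alone), the S100 limit, both together, the totals without S100a8 and S100a9 and the 3 ranges were chosen after seeing the data. The cause of these shifts was not tested. Depth limits the single days to genes of about 20 UMIs or more in 22 to 63 cells, and 1 pool per condition gives no spread between animals.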

Other observations

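Cd3d, which encodes the delta chain of the T cell receptor complex, had 561 UMIs in 128 of the 143 Il1b-low mature neutrophils. It stood at 453, 408, 474 and 336 CPM in sham, day 3, day 7 and day 14. Il1b-high mature neutrophils held 324 CPM, a ratio of 1.29 (1.11 to 1.51), immature neutrophils 258 CPM and B lineage barcodes 8.29 CPM. The partner genes Cd3e and Trac had 0 UMIs in the members, and Cd3g had 9. Ly6c2, a surface antigen gene used to tell monocyte subsets apart, stood at 949 CPM in Il1b-low and 268 CPM in Il1b-high cells, a ratio of 3.54 (3.04 to 4.15).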
